A study of Mus musculus with 10 samples.

Results

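The 35 genes described here encode lysosomal enzymes and membrane proteins, the TFEB family of transcription factors and proteins of autophagy. They were taken as a fixed list of gene symbols, and each symbol was looked up among the 47340 genes of the deposited expression table. All 35 were found, and all 35 passed the filter on low values that left 13065 genes for testing, namely a mean of at least 1 FPKM (fragment counts scaled to transcript length and library size) in either group of mice. RNASeq had been performed on pancreatic islets of floxed control mice (FL) and βFIT2KO mice (KO), as 5 libraries a genotype, to ask how loss of FIT2 from β cells alters islet transcripts. FIT2, encoded by Fitm2, is an ER membrane protein needed for lipid droplet formation.

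Every mouse was male, fed chow and 12 wk old, and both groups carried floxed Fitm2. KO mice also carried Cre recombinase driven by the rat insulin promoter, from the B6.Cg-Tg(Ins2-cre)25Mgn/J strain. The sample titles call the controls Flox, while the genotype field calls them wild type, and no islets with Cre but without the floxed gene are among the 10 libraries. The Cre transgene was therefore present in KO islets only. An effect of Cre itself or of the rest of this transgene cannot be told apart from loss of FIT2. Each genotype was represented by islets of 5 mice, 1 library for each. Islets recovered overnight in CMRL medium before polyA RNA was extracted. Whole islets hold several cell types, so in each result fewer cells of a type and less RNA per cell cannot be told apart.

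Lysosomes degrade proteins, lipids and glycans with acid hydrolases, many of which reach the organelle on mannose 6-phosphate receptors. In autophagy, a double membrane closes around cytoplasm or an organelle, ATG8 proteins are attached to its lipids, and the autophagosome fuses with a lysosome. TFEB, TFE3 and MITF can move to the nucleus when mTORC1 signaling falls and raise transcription of both sets of genes. In β cells, both routes also turn over insulin granules and damaged ER. Transcript levels do not show lysosomal activity or autophagic flux.

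Fitm2 was measured at 16.9, 30.5, 16.5, 37.1 and 15.5 FPKM in the FL libraries and at 4.56, 4.301, 7.75, 9.13 and 8.998 FPKM in the KO libraries. It fell by 1.58 on the log2 scale (adjusted p = 0.00228 from limma), with no overlap between groups. FPKM do not hold read numbers, so depth is unknown. From the spacing of low values, the other libraries were estimated at 1.41 to 2.39 times the depth of FL replicate 1. Between the libraries, the correlation of log2(FPKM + 1) across tested genes ranged from 0.953 to 0.979.

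Markers of other cell types moved with genotype. The summed FPKM of 12 macrophage markers was 125.1 to 149 in FL and 169.9 to 211 in KO, without overlap. Of the 9 macrophage markers tested, 3 passed as higher, and all 9 had positive fold changes. Among them, Cx3cr1 passed the filter on low values through its KO mean alone (0.997 FPKM in FL and 1.03 FPKM in KO). The filter thus favored its sign. The summed level of 6 stellate cell and pericyte markers was 16.2 to 24.1 FPKM in FL and 30.1 to 37.7 FPKM in KO, and all 5 tested were higher. Of 8 endothelial markers, 4 passed as higher, with sums of 166.1 to 193 FPKM in FL and 186 to 253 FPKM in KO. Of the 7 β cell markers tested, 6 were lower, and their summed level went from 2273 to 2844 FPKM in FL to 1511 to 2124 FPKM in KO. The defining hormone genes Ins1, Ins2, Iapp and Gcg are listed at 0 in every library of this table and add nothing to these sums. Such zeros can be failed estimates, so islet identity was checked on the other markers. Markers of other endocrine cells were lower too. The sum of the α cell markers was 419 to 630.2 FPKM in FL and 266 to 408 FPKM in KO, and 2 of the 4 tested, Irx1 and Ttr, were lower. Of 3 δ cell markers, 1 was lower, Sst, with sums of 4958 to 5850 FPKM in FL and 3991 to 5337 FPKM in KO. The sum of 5 duct cell markers overlapped, at 167 to 207 FPKM in FL and 147 to 317 FPKM in KO. Of the 4 tested, 1 was higher, Cftr (0.0372 ± 0.0177 FPKM in FL and 2.13 ± 0.315 FPKM in KO; n = 5, SD). Cftr passed the filter on low values through its KO mean alone, and Krt19, Muc1 and Spp1 did not pass the test. The sum of 6 acinar markers spread from 3530 to 8855 FPKM in FL and from 2288 to 16967 FPKM in KO, where KO replicate 5 was highest. The part of these shifts in the results below was not tested.

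**Figure D1:**
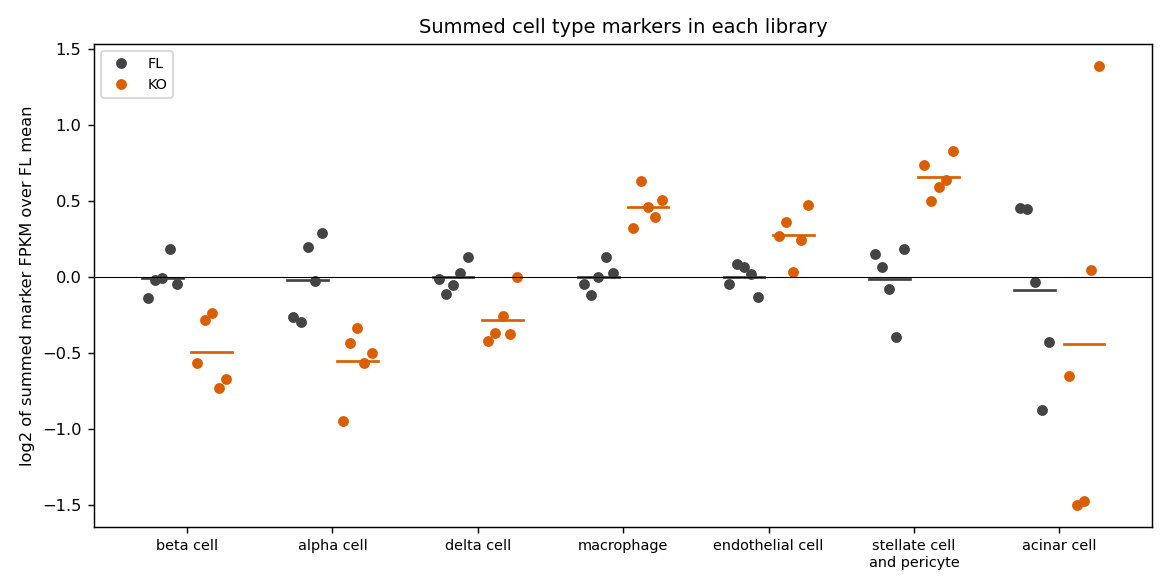
Each point is 1 library, and the y axis is the log2 of the summed FPKM of a marker list over its FL mean; lines are group means. The 5 KO libraries lie above all FL libraries for macrophage and stellate markers and below them for β cell markers, and KO replicate 5 stands highest for acinar markers.

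The lysosome and autophagy genes were called in both directions. Of the 35, 8 were higher in KO, 5 were lower and 22 did not pass an adjusted p of 0.05 (limma on log2(FPKM + 1), Benjamini-Hochberg over all 13065 tested genes). Over all tested genes, 9.05% were higher, 16.5% were lower and 25.5% were called in either direction. The members were thus called higher in 22.9% and lower in 14.3%. Under median-ratio scaling 10 were higher and 4 lower, when 12.4% of all tested genes were higher and 11.7% lower. On the TPM scale 10 were higher and 3 lower, when the shares of all tested genes were 10.6% and 11.1%. The median log2 fold change of the members was −0.01, against −0.06 over all tested genes, and the median size of the change was 0.14 in both. FL and KO values did not overlap for 11 members (31.4%), against 19.1% of all tested genes. On the log2(FPKM + 1) scale of the test, Wipi1 was the one member past 1.5-fold. The mean FPKM of Lipa was 50.3% higher in KO, and its log2 fold change was 0.59 with a pseudocount of 0.1. On the scale of the test, 15 members had log2 fold changes between −0.1 and 0.1. Of the 17 lysosomal enzymes and membrane proteins, 4 were higher and 3 lower. Of the 15 autophagy genes, 4 were higher and 2 lower, and the 3 TFEB family genes did not pass.

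**Figure D2:**
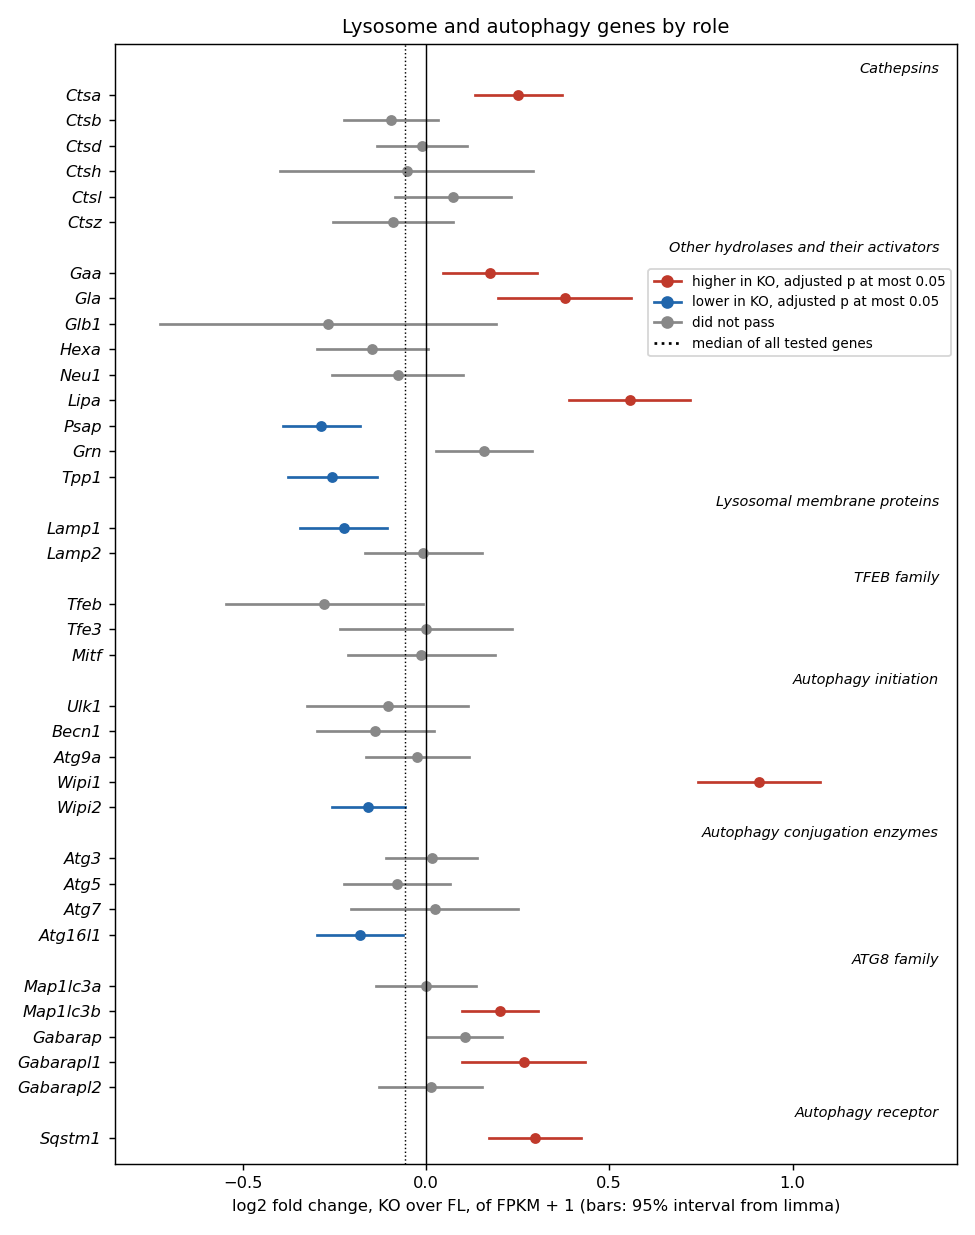
Log2 fold change, KO over FL, of each of the 35 genes (points) with the 95% interval from limma (bars), ordered by role. Wipi1 and Lipa lie farthest to the right, at 0.91 and 0.56, Psap lies farthest to the left of the called genes at −0.29, and the dotted line is the median of all tested genes at −0.06.

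Among the hydrolases of the 35 genes, Lipa rose most. Lipa encodes lysosomal acid lipase, which hydrolyzes the cholesteryl esters and triglycerides delivered to lysosomes, and lies at chr19:34492318-34527474 (GRCm38, minus strand). It was measured at 13.1, 12.3, 14.2, 15.1 and 11.9 FPKM in the FL libraries and 20.5, 19.5, 18.3, 22.6 and 19.2 FPKM in the KO libraries. All 5 KO libraries lay above all 5 FL libraries. The means were 13.3 ± 1.34 and 19.997 ± 1.63 FPKM (n = 5, SD), a log2 fold change of 0.56 (95% interval 0.39 to 0.72; adjusted p = 3.92e-04 from limma). Gla, at chrX:134588149-134601125 (minus strand), encodes α-galactosidase A, which removes galactose from globotriaosylceramide. Its levels were 14.9, 14.3, 13.1, 12.1 and 13.3 FPKM in the FL libraries and 16.5, 21.9, 16.6, 16.9 and 17.8 FPKM in the KO libraries. The groups did not overlap, and KO replicate 2 stood above the other KO libraries. The log2 fold change was 0.38 (95% interval 0.20 to 0.56; adjusted p = 0.00717 from limma), and leaving out KO replicate 2 gave 0.31.

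Ctsa encodes cathepsin A, a carboxypeptidase that also holds β-galactosidase and neuraminidase 1 in a stable complex. It lies at chr2:164832873-164841032 (plus strand), and 17.4% of its exon bases overlap Neurl2 or Pltp on the opposite strand. Ctsa was at 111, 99.6, 105, 108 and 103 FPKM in the FL libraries and 137, 127, 114, 125 and 127 FPKM in the KO libraries, without overlap (log2 fold change 0.25, adjusted p = 0.00674 from limma). The partners of cathepsin A did not pass. Neu1, neuraminidase 1, was at 87.8 ± 5.55 FPKM in the FL libraries and 83.4 ± 10.2 FPKM in the KO libraries (n = 5, SD). Its log2 fold change was −0.08 (95% interval −0.26 to 0.10). Without KO replicate 2 the log2 fold change of Neu1 was −0.14, and without KO replicate 4 it was −0.03. Glb1, β-galactosidase, was at 20.1, 20.9, 20.3, 11.4 and 20.7 FPKM in the FL libraries and 13.02, 25.1, 13.6, 13.3 and 12.6 FPKM in the KO libraries. FL replicate 4 was far below the other FL libraries and KO replicate 2 far above the other KO libraries, so each group overlapped the other through 1 library. The log2 fold change of Glb1 was −0.27 (adjusted p = 0.382 from limma), and it was −0.43 without FL replicate 4 (adjusted p = 0.108) and −0.44 without KO replicate 2 (adjusted p = 0.0651). Tmppe, a gene that covers 5.49% of the Glb1 exon bases on the same strand, was at 4.27, 4.61, 4.72, 4.87 and 4.54 FPKM in the FL libraries and 5.16, 4.89, 5.43, 4.82 and 5.11 FPKM in the KO libraries, with no library apart.

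Gaa, acid α-glucosidase, which breaks down lysosomal glycogen, was at 164, 153, 169, 169.8 and 165 FPKM in the FL libraries and 177, 210.2, 189, 175 and 177 FPKM in the KO libraries. The groups did not overlap, and the log2 fold change of 0.17 passed narrowly (adjusted p = 0.0499 from limma). That call was lost when any one of the 10 libraries was left out, with log2 fold changes of 0.13 to 0.19. Grn, the precursor of granulins, was at 105 ± 5.42 and 117 ± 8.95 FPKM in FL and KO (n = 5, SD), a log2 fold change of 0.16 that did not pass (adjusted p = 0.0729 from limma), but did under each of 3 rescalings of the libraries.

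Psap, the most abundant lysosomal transcript of the list, was lower in KO. It encodes prosaposin, which is cut into the saposins that present sphingolipids to their hydrolases, and lies at chr10:60277627-60302597 (plus strand). Psap was at 889.6, 921, 958, 1023 and 923 FPKM in the FL libraries and 786, 795, 780.3, 748 and 755 FPKM in the KO libraries. Every KO library lay below every FL library, and the group means differed by −18.0% (log2 fold change −0.29, 95% interval −0.39 to −0.18; adjusted p = 0.00166 from limma). Tpp1, tripeptidyl peptidase 1, fell too, from 31.7, 30.2, 35.5, 36.1 and 33.4 FPKM in FL to 27.5, 28.2, 29.2, 26.6 and 27.2 FPKM in KO. The groups did not overlap (log2 fold change −0.26, adjusted p = 0.00697 from limma). Hexa, the α subunit of β-hexosaminidase A, was at 273 ± 23.1 FPKM in the FL libraries and 247 ± 18.1 FPKM in the KO libraries (n = 5, SD), a log2 fold change of −0.15 that did not pass (adjusted p = 0.148 from limma).

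The other 5 cathepsins did not pass, and their log2 fold changes lay between −0.10 and 0.07. Ctsd, the aspartic protease cathepsin D, was the most abundant cathepsin transcript at 404 ± 20.2 FPKM in the FL libraries and 401 ± 25.6 FPKM in the KO libraries (n = 5, SD). The 95% interval of its log2 fold change was −0.13 to 0.11. Ctsl, the cysteine protease cathepsin L, followed at 365 ± 30.5 and 384 ± 31.01 FPKM, and Ctsb, cathepsin B, at 262 ± 18.2 and 244 ± 12.8 FPKM. Ctsz, a carboxypeptidase, was at 132 ± 7.54 and 124 ± 13.4 FPKM. Ctsh, an aminopeptidase, was the lowest at 13.04 ± 2.95 and 12.5 ± 2.43 FPKM and the most variable, with a 95% interval of −0.40 to 0.29. The Ctsd exons share 34.4% of their bases with the gene model Gm49369 on the same strand, so reads there cannot be assigned to one of them. The Ctsl exons share 6.09% of their bases with Gm49230 on the same strand and 26.8% with Gm47123 on the opposite strand. The summed FPKM of the 6 cathepsin genes was 1228 to 1343 in FL and 1243 to 1330 in KO, and cathepsin A made up 8.24% ± 0.47 of it in FL and 9.74% ± 0.51 in KO (n = 5, SD).

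The 2 major lysosomal membrane glycoproteins differed in their calls. Lamp1, at chr8:13159161-13175338 (plus strand), was at 579, 613, 603, 678 and 591 FPKM in the FL libraries and 524, 518, 563, 512 and 503 FPKM in the KO libraries. Every KO library lay below every FL library, and the log2 fold change was −0.22 (95% interval −0.34 to −0.11; adjusted p = 0.0116 from limma). The call was lost under quantile normalization, where the log2 fold change was −0.14 (adjusted p = 0.164). Lamp2, whose product also takes part in fusion with autophagosomes, was at 301, 285, 282, 326 and 271 FPKM in the FL libraries and 323, 255, 289, 311 and 280.5 FPKM in the KO libraries. Its groups overlapped, with a log2 fold change of −0.0075 (95% interval −0.17 to 0.15). The difference between the changes of Lamp1 and Lamp2, −0.22, had an exact permutation p of 0.0238 and an adjusted p of 0.0536 over 9 such pairs.

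**Figure D3:**
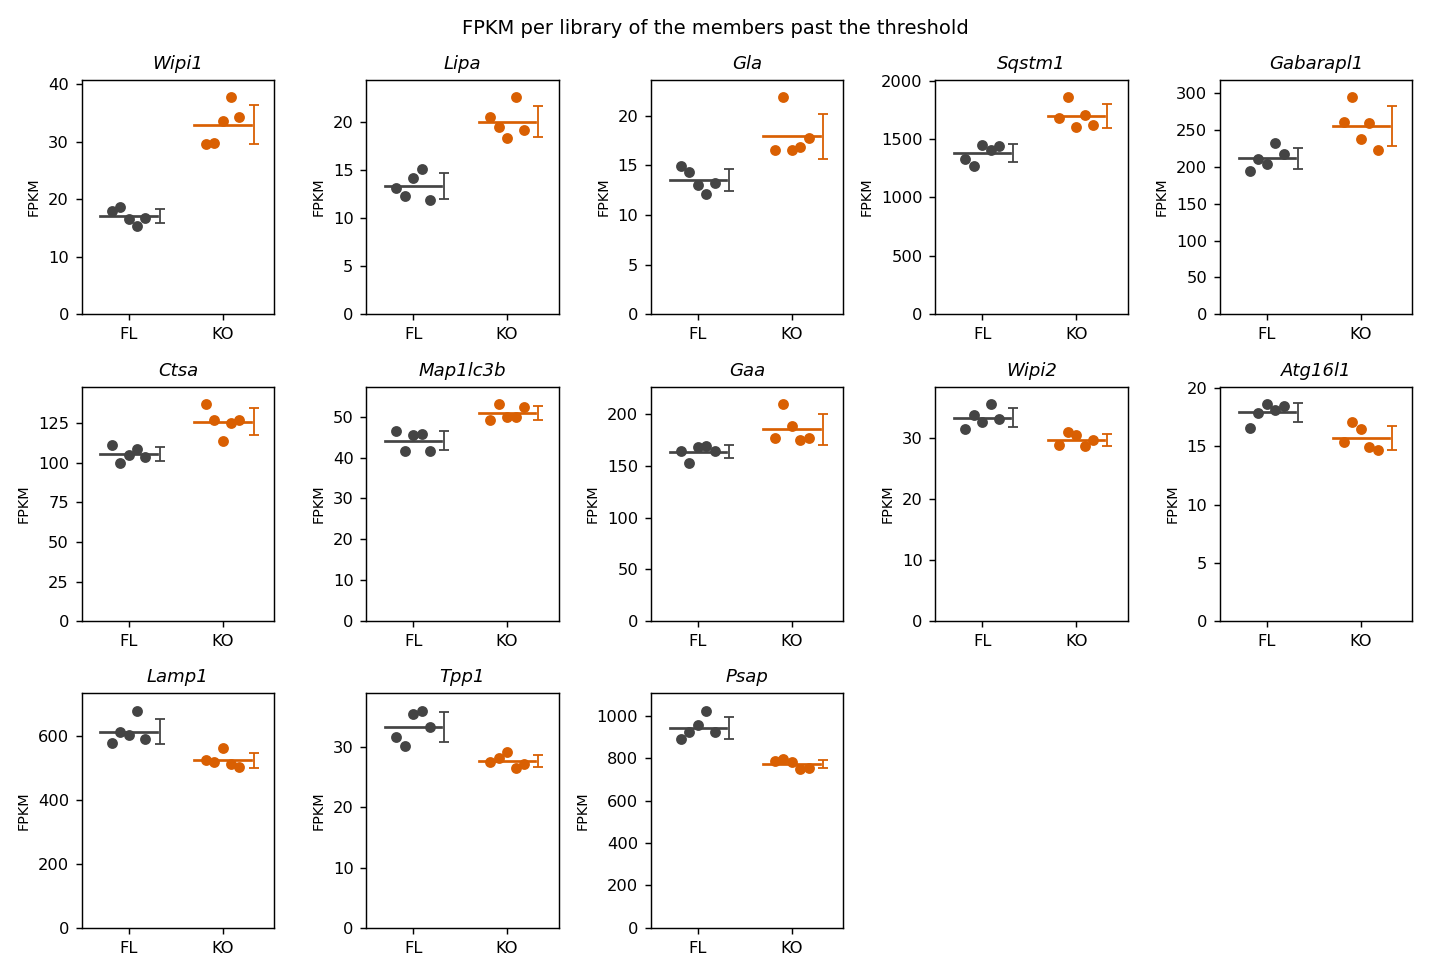
FPKM of the 13 called genes in each library (points), with the group mean (line) and SD (error bar), on linear axes that start at 0. FL and KO points do not overlap except for Gabarapl1 and Atg16l1, and the Wipi1 points of KO lie near 33 FPKM, against 17 FPKM in FL.

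None of the TFEB family genes passed. Tfe3 was the most abundant, at 31.002 ± 5.29 FPKM in the FL libraries and 30.7 ± 2.26 FPKM in the KO libraries (n = 5, SD), and made up 75.2% ± 4.01 of the summed FPKM of the 3 genes in FL and 78.0% ± 1.25 in KO. Its log2 fold change was −0.0012 (95% interval −0.24 to 0.23). Tfeb was at 7.99, 6.83, 8.57, 4.72 and 6.57 FPKM in the FL libraries and 4.904, 5.36, 5.38, 5.76 and 5.86 FPKM in the KO libraries. FL replicate 4 lay below all KO libraries and the other 4 FL libraries above them, and the log2 fold change of −0.28 did not pass (adjusted p = 0.120 from limma). Without FL replicate 4 it was −0.39 and passed (adjusted p = 0.00802). Mitf was the lowest member at 3.23 ± 0.505 FPKM in the FL libraries and 3.17 ± 0.314 FPKM in the KO libraries (n = 5, SD), with a log2 fold change of −0.01. These factors act mainly through their location in the cell, which RNA levels do not report.

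The TFEB family binds a palindromic core, CACGTG, often within the longer GTCACGTG, which contains it. Both were searched on both strands in the windows of 300 bases around the start sites (250 before and 50 after) given by RefSeq for GRCm38.p6, where 30 of the 35 members had an entry. A gene with several windows was counted if any of them matched. CACGTG was found for 10 of the 30 (33.3%), against 12.0% of 9631 tested genes with an entry and 8.09% of all 27025 genes. Of the other lysosome and autophagy genes with an entry, described further on, 30 of 122 (24.6%) held it. GTCACGTG was found for 7 of the 30 (23.3%), namely Atg3, Atg7, Ctsa, Ctsd, Gla, Glb1 and Lamp1, against 4.84% of tested genes and 22 of the 122 other lysosome and autophagy genes (18.03%). Of these 7, 3 were called and 4 were not, out of 12 called and 18 uncalled members with an entry. Called genes of both directions held it, and genes that did not pass held it too. The windows below are printed 5′ to 3′ on the gene's strand to show this. Capitals mark CACGTG, with the GT before it or the AC behind it where GTCACGTG was matched. Ctsa (chr2:164833523-164833822, plus strand) and Gla (chrX:134600956-134601255, minus strand) were higher in KO, Lamp1 (chr8:13158911-13159210, plus strand) was lower and Ctsd (chr7:142387778-142388077, minus strand) did not pass. Ctsa has 2 windows, and the other, at the upstream start site (chr2:164832622-164832921), held neither motif. Wipi1 (chr11:109611340-109611639, minus strand), with the largest rise, held neither motif in its window. The gene model used for the Wipi1 coordinates starts upstream of this window, at chr11:109611967, and that start was not searched.
Ctsa: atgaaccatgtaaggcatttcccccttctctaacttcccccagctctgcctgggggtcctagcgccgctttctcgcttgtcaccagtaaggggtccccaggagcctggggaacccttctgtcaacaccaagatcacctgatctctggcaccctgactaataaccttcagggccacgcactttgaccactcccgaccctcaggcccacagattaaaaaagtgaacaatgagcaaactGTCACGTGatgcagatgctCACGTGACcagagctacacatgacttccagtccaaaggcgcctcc
Gla: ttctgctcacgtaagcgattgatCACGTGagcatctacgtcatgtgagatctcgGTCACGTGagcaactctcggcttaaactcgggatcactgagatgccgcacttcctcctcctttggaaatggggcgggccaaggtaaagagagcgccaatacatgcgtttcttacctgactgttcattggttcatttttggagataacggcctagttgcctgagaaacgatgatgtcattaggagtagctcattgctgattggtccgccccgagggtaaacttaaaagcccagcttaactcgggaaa
Lamp1: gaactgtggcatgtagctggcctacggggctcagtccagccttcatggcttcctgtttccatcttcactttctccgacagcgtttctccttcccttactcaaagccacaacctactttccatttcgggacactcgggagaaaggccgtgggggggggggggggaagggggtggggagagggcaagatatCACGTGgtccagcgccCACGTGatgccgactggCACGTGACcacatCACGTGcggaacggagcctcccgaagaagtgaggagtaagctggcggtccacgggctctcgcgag
Ctsd: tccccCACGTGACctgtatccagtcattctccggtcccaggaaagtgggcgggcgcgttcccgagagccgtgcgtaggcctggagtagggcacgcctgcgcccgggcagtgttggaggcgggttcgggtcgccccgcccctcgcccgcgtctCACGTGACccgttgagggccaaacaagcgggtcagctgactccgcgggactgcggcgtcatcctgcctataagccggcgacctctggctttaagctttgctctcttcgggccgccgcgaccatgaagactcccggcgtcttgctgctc
Wipi1: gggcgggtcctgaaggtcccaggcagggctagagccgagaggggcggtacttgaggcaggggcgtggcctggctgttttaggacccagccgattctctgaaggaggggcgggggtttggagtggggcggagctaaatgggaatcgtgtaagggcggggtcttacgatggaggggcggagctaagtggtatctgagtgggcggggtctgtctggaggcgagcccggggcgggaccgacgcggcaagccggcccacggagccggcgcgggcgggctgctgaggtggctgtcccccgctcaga
Lamp1 held 4 copies of CACGTG and Ctsa, Gla and Ctsd 2 each. A match is a match of letters only, and binding was not measured.

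Wipi1 had the largest change of the 35 genes. It encodes a protein that binds phosphatidylinositol 3-phosphate on the forming autophagosome and lies at chr11:109573331-109611967 (GRCm38, minus strand), with no exon overlap with another gene. Wipi1 was at 17.96, 18.7, 16.6, 15.4 and 16.7 FPKM in the FL libraries and 29.6, 29.8, 33.6, 37.8 and 34.3 FPKM in the KO libraries. The lowest KO library was well above the highest FL library. The means were 17.1 ± 1.27 and 33.01 ± 3.42 FPKM (n = 5, SD), 93.3% higher in KO, with a log2 fold change of 0.91 (95% interval 0.74 to 1.07; adjusted p = 1.21e-05 from limma). The rise stayed between 0.86 and 0.95 on the log2 scale when single libraries were left out.

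Wipi2, its homolog, which recruits the ATG16L1 complex, went the other way. It was at 31.4, 33.8, 32.5, 35.6 and 33.03 FPKM in the FL libraries and 28.8, 30.9, 30.5, 28.7 and 29.6 FPKM in the KO libraries. The groups did not overlap, and the log2 fold change was −0.16 (adjusted p = 0.0264 from limma). This small fall did not pass under any of the 3 rescalings (adjusted p = 0.0813 to 0.0879) or without any one of FL replicates 2, 4 and 5 and KO replicates 1 and 4 (adjusted p = 0.0518 to 0.0671). Within a library, Wipi1 was below Wipi2 in all 5 FL libraries, by 0.92 on average on the log2 scale, whereas in KO it was 0.14 above on average and the difference ranged from −0.05 to 0.38. The change in this difference of log2(FPKM + 1), 1.07, had an exact two-sided permutation p of 0.00794, the smallest that 5 against 5 allows, and an adjusted p of 0.0357 over 9 pairs. Wipi1 and Wipi2 each lacked overlap between groups and moved in opposite directions, so this p was fixed in advance. It adds no support beyond the single genes.

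Of the listed members, those that start autophagy upstream of the WIPI proteins did not pass. Ulk1, the initiating kinase, was at 14.2 ± 2.13 FPKM in the FL libraries and 13.02 ± 1.21 FPKM in the KO libraries (n = 5, SD), with a 95% interval of the log2 fold change of −0.32 to 0.11. Becn1, a subunit of the phosphatidylinositol 3-kinase complex, was at 149 ± 14.1 and 135 ± 9.13 FPKM, with an interval of −0.30 to 0.02, and 43.9% of its exon bases overlap Cntd1 on the opposite strand. Atg9a, the membrane protein of vesicles that seed the autophagosome, was at 14.9 ± 0.868 and 14.7 ± 1.26 FPKM, with an interval of −0.16 to 0.12. For Atg9a, 31.8% of the exon bases overlap the gene model Gm29253 on the same strand, so reads there cannot be assigned to one of them.

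Of the 4 conjugation genes, Atg16l1 alone passed. ATG16L1, with ATG5 and ATG12, sets the place where ATG8 proteins are attached to lipid. Atg16l1, at chr1:87755870-87792428 (plus strand), was at 16.5, 17.8, 18.6, 18.1 and 18.4 FPKM in the FL libraries and 15.4, 17.05, 16.5, 14.97 and 14.6 FPKM in the KO libraries. The groups overlapped through FL replicate 1 and KO replicate 2, and the log2 fold change was −0.18 (adjusted p = 0.0306 from limma). It did not pass without any one of FL replicates 2, 3, 4 and 5 and KO replicates 1, 4 and 5 (adjusted p = 0.0560 to 0.0751), nor on the TPM scale (adjusted p = 0.0931). Atg3, the E2-like enzyme for ATG8 proteins, was at 41.1 ± 2.71 FPKM in the FL libraries and 41.5 ± 2.098 FPKM in the KO libraries (n = 5, SD). Atg7, the E1-like enzyme, was at 12.6 ± 1.85 and 12.8 ± 1.42 FPKM, and Atg5 at 28.8 ± 2.501 and 27.2 ± 1.78 FPKM. Their log2 fold changes were 0.02, 0.02 and −0.08.

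The ATG8 proteins are conjugated to the autophagosome membrane and bind cargo receptors. Of the 5 genes, 2 were higher in KO. Gabarapl1, at chr6:129533160-129542346 (plus strand), was at 194, 211, 203, 232 and 217 FPKM in the FL libraries and 261, 295, 238, 259 and 223 FPKM in the KO libraries. KO replicate 5 fell within the FL range, and the log2 fold change was 0.27 (adjusted p = 0.0263 from limma). Without FL replicate 1, FL replicate 3, KO replicate 1 or KO replicate 4 the adjusted p was 0.0583 to 0.0611. For Gabarapl1, 28.3% of the exon bases overlap 1700101I11Rik on the opposite strand. Map1lc3b, the gene of LC3B, was at 46.4, 41.6, 45.4, 45.7 and 41.7 FPKM in the FL libraries and 49.2, 53.1, 49.9, 49.9 and 52.3 FPKM in the KO libraries, without overlap (log2 fold change 0.20, adjusted p = 0.0105 from limma).

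Map1lc3a and Gabarapl2 did not pass, at 58.1 ± 3.83 and 58.1 ± 4.11 FPKM for Map1lc3a and 30.6 ± 1.63 and 30.9 ± 2.69 FPKM for Gabarapl2 (FL, then KO; n = 5, SD). Gabarap was the most abundant, at 672, 678, 711, 703 and 649 FPKM in the FL libraries and 725, 782, 747, 717 and 701 FPKM in the KO libraries. The groups overlapped, and its log2 fold change of 0.11 did not pass (adjusted p = 0.122 from limma), but did under median-ratio scaling (adjusted p = 0.00810) and on the TPM scale (adjusted p = 0.0454). Gabarap made up 66.5% ± 0.98 of the summed FPKM of the 5 genes in FL and 65.1% ± 1.26 in KO, and Gabarapl1 20.6% ± 1.20 and 22.5% ± 1.34 (n = 5, SD). The summed level of the 5 genes was 996 to 1067 FPKM in FL and 1065 to 1226 FPKM in KO.

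Sqstm1 encodes p62, a receptor that links ubiquitinated cargo to ATG8 proteins and is itself degraded with it. It was the most abundant of the 35 transcripts and lies at chr11:50199366-50210827 (minus strand), where 17.3% of its exon bases overlap Mrnip on the opposite strand. Sqstm1 was at 1328, 1273, 1447, 1406 and 1439 FPKM in the FL libraries and 1684, 1859, 1601, 1709 and 1619 FPKM in the KO libraries. Every KO library lay above every FL library. The log2 fold change was 0.30 (95% interval 0.17 to 0.42; adjusted p = 0.00370 from limma).

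Homologs were also compared within each library, as the difference of their log2(FPKM + 1). Besides that of Wipi1 and Wipi2, the difference between Gabarapl1 and Gabarapl2 changed with genotype, from 2.75 ± 0.080 in FL to 3.004 ± 0.067 in KO on the log2 scale (n = 5, SD; exact permutation p = 0.00794, adjusted p = 0.0357 over 9 pairs). Neither pair overlapped between groups, which for Wipi1 and Wipi2 followed from the single genes. For Map1lc3b and Map1lc3a the change was 0.20 (exact permutation p = 0.0238, adjusted p = 0.0536). The remaining 5 pairs, of Gabarap with Gabarapl1 or Gabarapl2 and among the TFEB family, had adjusted p of 0.0816 to 0.968. Sharing of reads between near-identical copies of these genes was not examined.

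**Figure D4:**
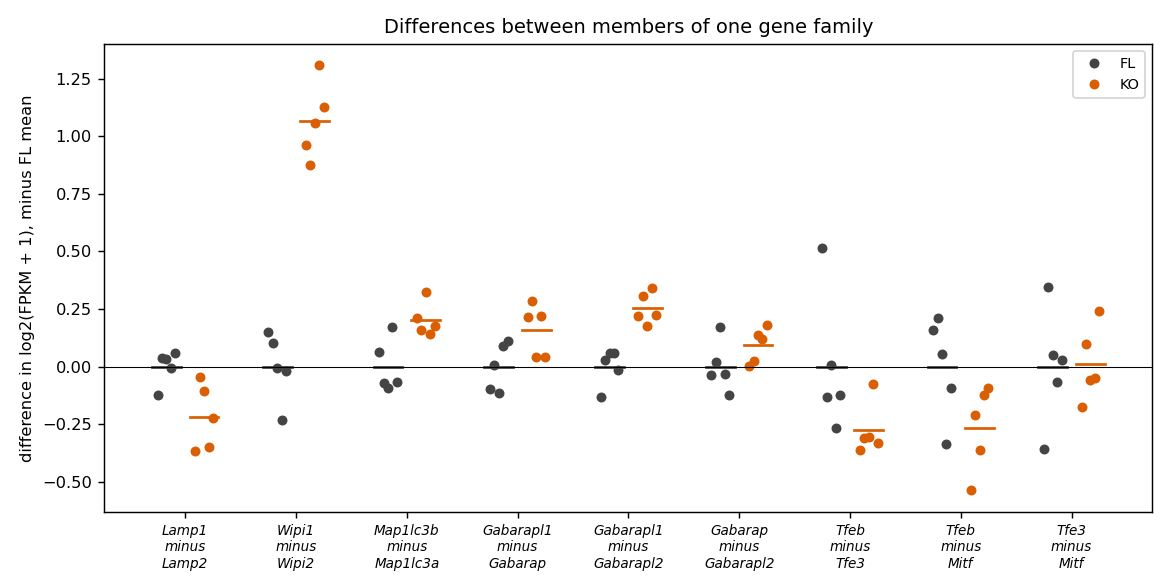
Each point is 1 library, and the y axis is the difference in log2(FPKM + 1) between 2 homologs, minus its FL mean; lines are group means. For Wipi1 and Wipi2 the KO libraries lie 1.07 above FL on average, and the changes of the other 8 pairs lie between −0.28 and 0.25.

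The members spanned a wide range of levels, from 3.23 FPKM for Mitf to 1379 FPKM for Sqstm1 in FL, and 15 of them had FL means above 100 FPKM. After Sqstm1 the most abundant were Psap (943 ± 51.1 FPKM), Gabarap (683 ± 25.2 FPKM) and Lamp1 (613 ± 38.8 FPKM; n = 5, SD). The median coefficient of variation of the members was 6.75% in FL, against 8.86% over all tested genes. Single libraries led for many members. KO replicate 2 was the highest KO library for 18 of the 35 (51.4%, against 35.5% of all tested genes), and FL replicate 4 the highest FL library for 15 (42.9%, against 32.3%). Without KO replicate 2, 7 members were higher and 5 lower, and without FL replicate 4, 7 were higher and 4 lower.

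Of 154 further genes of the lysosome and autophagy, from lists drawn up by function, 16 were higher in KO (10.4%) and 17 lower (11.04%), with a median log2 fold change of −0.02. Over all tested genes 9.05% were higher and 16.5% lower. Under median-ratio scaling 25 of the 154 were higher and 11 lower, against 12.4% and 11.7% of all tested genes. Under quantile normalization 26 were higher and 11 lower, against 11.4% and 13.1%, and on the TPM scale 18 and 11, against 10.6% and 11.1%. The largest rise was that of Fam134b, a receptor for autophagy of the ER. Fam134b was at 22.8, 25.5, 25.7, 27.6 and 25.6 FPKM in the FL libraries and 61.7, 55.96, 54.3, 61.9 and 48.9 FPKM in the KO libraries. Its groups lay far apart (log2 fold change 1.12, adjusted p = 1.76e-06 from limma). Tex264, another receptor for ER, rose from 88.7 ± 8.04 to 117 ± 5.19 FPKM (n = 5, SD), while Ncoa4, the receptor for ferritin, fell from 23.8 ± 0.896 to 21.04 ± 1.53 FPKM, a call lost under each rescaling (adjusted p = 0.129 to 0.151). Bnip3, a receptor for mitochondria, had the largest fall of the 154 genes, and is named after its values were seen because its groups overlapped. It was at 140.4, 162, 129, 115 and 134 FPKM in the FL libraries and 74.2, 79.9, 133, 69.6 and 60.2 FPKM in the KO libraries. KO replicate 3 lay among the FL values, and the log2 fold change was −0.75 (adjusted p = 0.0128 from limma). Of the 16 receptor genes, 3 were higher and 3 lower. Of 22 other core autophagy genes, 2 were higher and 2 lower, among them Ulk2, a kinase related to Ulk1 (log2 fold change 0.25), Atg4d, a protease of ATG8 proteins (−0.33), and Atg12 (−0.18), whose call was lost under each rescaling (adjusted p = 0.108 to 0.120). Of 15 genes for fusion with lysosomes, 1 was higher, the autophagosomal SNARE Stx17 (0.32, adjusted p = 0.00508 from limma).

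Of 34 other hydrolases and cofactors, 6 were higher (17.6%) and 4 lower (11.8%). Acp5, a tartrate-resistant acid phosphatase, rose from 9.496 ± 2.03 to 15.5 ± 1.79 FPKM, and Lgmn, the asparaginyl protease legumain, from 38.3 ± 2.33 to 56.5 ± 4.03 FPKM (n = 5, SD). Idua, α-iduronidase (log2 fold change −0.32), and Ppt1, palmitoyl-protein thioesterase 1 (−0.22), fell. Of 21 membrane proteins and transporters, 2 were higher (9.52%) and 3 lower (14.3%). Cd68, a LAMP family protein abundant in macrophages, rose from 22.8 ± 2.202 to 37.1 ± 2.27 FPKM (n = 5, SD), beside the rise of the macrophage markers given above, whose part was not tested. Laptm4b rose as well (0.35), whereas Cln3, a membrane protein lost in a childhood neuronal storage disease, fell (−0.48, adjusted p = 7.73e-05 from limma), as did the lipid transporter Abca2 (−0.47). Of 18 subunits of the vacuolar ATPase, the proton pump, 16 did not pass, Atp6v1g2 was higher (0.41) and Atp6ap2 lower (−0.26). The call of Atp6ap2 was lost under each rescaling (adjusted p = 0.0677 to 0.151).

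Of 11 genes that sort hydrolases to lysosomes, Igf2r, the large mannose 6-phosphate receptor, rose (0.33, adjusted p = 0.00382 from limma). M6pr, the small one, fell (−0.16, adjusted p = 0.0239 from limma), with the call lost under each rescaling (adjusted p = 0.0605 to 0.115). Sort1, sortilin, fell from 59.3 ± 2.32 to 40.97 ± 3.03 FPKM (n = 5, SD). Of 17 genes of mTORC1, Rag GTPase and folliculin control, which act for or against holding TFEB in the cytosol, 15 did not pass. Tsc2, an inhibitor of mTORC1 (−0.28), and Fnip2, a partner of folliculin (−0.22), were lower.

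**Figure D5:**
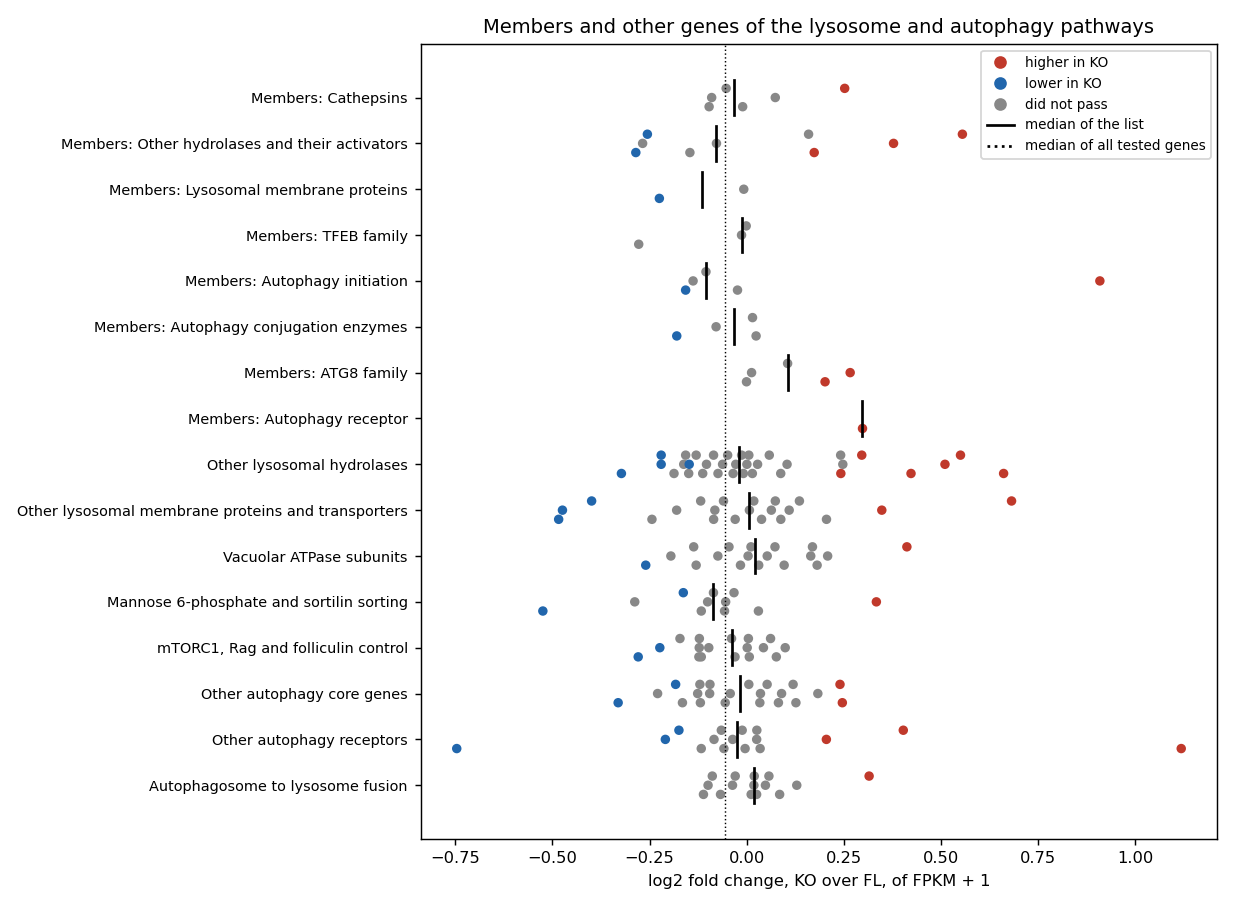
Log2 fold change, KO over FL, of the 35 members by role (upper 8 lists) and of 154 further genes (lower 8 lists); each point is a gene, colored by its call, and short lines are list medians. The list medians lie between −0.12 and 0.30, and Wipi1 at 0.91 and Fam134b at 1.12 stand farthest to the right.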

How the data were processed

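PolyA RNA of islets from FL and KO mice (5 libraries each) was sequenced as stranded single-end reads of 75 nt. For 47340 genes, FPKM of every library stand in the 1 table that the authors deposited. The submitters' processing notes name STAR 2.5.2a, Cuffnorm 2.2.1 and the build mm10 (GRCm38). The annotation release, the scaling between libraries and the use of strand in counting are not given in the sources used here, and reads were not processed again. FPKM keep no read numbers, so no counting error was computed and only a relative depth was read from the steps between low values.

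The test of KO against FL was limma 3.58.1 (R 4.3.3, eBayes with a trend, no covariate) on log2(FPKM + 1). A gene entered it if its FL or KO mean reached 1 FPKM. The p-values were adjusted by Benjamini-Hochberg over these 13065 genes and called at 0.05. Fold changes are on the log2(FPKM + 1) scale, which understates changes of low genes. Homologs were compared within libraries, as differences of log2(FPKM + 1), by exact two-sided permutation tests. Coordinates and exon overlaps come from GENCODE release M21 (GRCm38), matched on identifiers without version for all 35 members, and promoter windows from RefSeq (GRCm38.p6). The procedure was tested on simulated data with independent values and changes larger than that of any member. That test does not show how well small changes are found.

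The 35 members and the other lists were chosen with earlier results of these data known. All members were named, and from each other list up to 2 called genes per direction with the largest change and no overlap between groups. Alternatives were a pseudocount of 0.1, no filter or 5 FPKM, median-ratio scaling, quantile normalization, rescaling to the same sum (TPM), a change of at least 1.5-fold, the replicate number as a block and leaving out each library. Tables were made with Python 3.11.15 and pandas 2.3.3.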

Additional observations from a re-analysis of the deposited data

Results flagged for a closer look

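In 4 of the 70 groups of 5 values (35 genes in FL and in KO), 1 library stood apart from the rest, where chance alone flags about 1 group in 20, or 3.5. For Glb1, FL replicate 4 was at 11.4 FPKM and the nearest FL library at 20.1 FPKM, a gap of 0.914 of the whole range of that group. For the same gene, KO replicate 2 was at 25.1 FPKM and the nearest KO library at 13.6 FPKM (0.922 of the range), so that 1 library of each group lay near the values of the other. KO replicate 2 was also apart for Gla, at 21.9 FPKM against 17.8 FPKM for the nearest KO library (0.767 of the range). FL replicate 4 was apart for Atg5, at 33.1 FPKM against 28.6 FPKM (0.736 of the range).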

How the results depend on the processing

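Of the 13 called genes, 7 (Ctsa, Gla, Lipa, Psap, Tpp1, Wipi1 and Sqstm1) stayed called under all 17 alternatives other than a required change of 1.5-fold, and none of the 13 changed direction. Gaa passed in 3 of the 17 (the 3 rescalings), Wipi2 and Atg16l1 in 8 each, and Gabarapl1 in 12. The median log2 fold change of all tested genes, −0.06, was −0.003 after median-ratio scaling, and the split over all genes went from 2150 lower and 1183 higher to 1531 lower and 1621 higher, with 1708 and 1494 under quantile normalization and 1536 and 1470 on the TPM scale. The number of lower members went from 5 to 3 under quantile normalization, TPM and the replicate block, and ranged from 3 to 5 when single libraries were left out (3 without FL replicate 2, FL replicate 5, KO replicate 1 or KO replicate 4). When calls also had to reach 1.5-fold, 0 members were lower and 1 was higher, and over all genes 290 were lower and 349 higher. Of the 154 further genes, 1 was then lower and 3 were higher. The 17 further genes called lower became 11 under each rescaling, and ranged from 11 to 21 when single libraries were left out (11 without FL replicate 3 or KO replicate 1). The 8 higher members became 10 under median-ratio scaling and TPM and 9 under quantile normalization. The 16 further genes called higher became 25 under median-ratio scaling, 26 under quantile normalization, 18 on the TPM scale and 13 with the replicate block.

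With the replicate number as a block, 3 members were lower and 5 higher, and of the further genes 10 were lower. Map1lc3b (adjusted p = 0.0605), Gabarapl1 (0.0542), Gaa (0.134), Wipi2 (0.0799) and Atg16l1 (0.0712) then did not pass. Libraries of the same number did not deviate together (correlations of −0.10 to 0.003, and no FL library correlated best with the KO library of its own number). No pairing by number was thus seen in the expression values. Whether mice of the same number were littermates or handled together cannot be told from this.

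Sign changes were limited to 10 genes that did not pass. Under median-ratio scaling, quantile normalization and TPM, in that order, the log2 fold change was 0.048, 0.048 and 0.033 for Ctsd, 0.051, 0.055 and 0.036 for Lamp2, 0.056, 0.054 and 0.042 for Tfe3, 0.031, 0.029 and 0.018 for Atg9a, and 0.057, 0.062 and 0.043 for Map1lc3a. Mitf was at 0.031 under median-ratio scaling and 0.022 on the TPM scale, and has no value under the filter at 5 FPKM. Ctsh was at 0.0011 under median-ratio scaling. When single libraries were left out, the log2 fold change ranged from −0.046 to 0.013 for Ctsd, from −0.13 to 0.044 for Ctsh, from −0.046 to 0.039 for Lamp2, from −0.079 to 0.070 for Tfe3, from −0.066 to 0.046 for Mitf, from −0.050 to 0.015 for Atg9a, from −0.032 to 0.037 for Map1lc3a, from −0.054 to 0.069 for Atg7, from −0.025 to 0.039 for Atg3 and from −0.027 to 0.052 for Gabarapl2. The causes of these shifts were not tested. Of the 23 further genes named, 17 stayed called under all 17 alternatives other than the 1.5-fold requirement, while Atp6ap2 passed in 3 of 17, Atg12 in 4, Ncoa4 in 5, M6pr in 10 and Fnip2 in 16, and Atp6v1g2 in 14 of 16. Read numbers are not in FPKM, so which of the small differences depth limits cannot be said.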
